A study of Mus musculus with 76 samples.

Results

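The genes described here are Macc1, the receptor genes Met and Mst1r, and the genes of their ligands, Hgf and Mst1. They were chosen by name, 5 of the 18194 genes measured, because Macc1 had been seen to be lost in tumours given MAP3K11; all 8 of their probe sets were taken, over all 13 groups. RNA was measured on 76 arrays of tumours from C57BL/6 mice, 1 array a sample. The tumours came from an engineered mouse model in which HER2(V659E) is switched on by doxycycline; doxycycline was withdrawn to silence it, and 1 of 13 genes was introduced to take its place. The groups carry ErbB3, FAK1, FGFR2aIIIb, FGFR2aIIIc, FGFR3, HER2, MAP3K7 (TAK1), MAP3K11 (MLK3), PIP5K1B, RONd160, RON with its ligand MSP, RSK2 or TNK2, with 4 arrays for FAK1 and 6 for each of the others. All groups share the engineered HER2 background, and no group without an introduced gene was analysed here. The 6 MAP3K11 tumours are labelled as cachectic and the other 70 as not. Arrays are labelled biological replicates, with no animal, age or tumour line named, and the labels do not say what T1, T2 and T3 in the titles stand for.

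MET is the receptor tyrosine kinase for hepatocyte growth factor (HGF), which mesenchymal cells usually make and epithelial cells receive. RON, the product of Mst1r, is the close relative of MET and is bound by macrophage stimulating protein (MSP), the product of Mst1, which the liver secretes. Both ligands are made as inactive precursors that serine proteases cut. MACC1 is known from colon cancer as a regulator that raises MET transcription and accompanies metastasis. The symbol Mst1 here is the MSP gene, not the kinase gene Stk4.

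Met varied from tumour to tumour in several groups, and Macc1 was chosen for its loss in the MAP3K11 tumours. The stretches upstream of both are therefore shown. They are the 250 bases before the start in RefSeq's promoter table (mouse build GRCm38.p6), which held all 5 genes. Capitals mark the only match to the AP-1 heptamer TGACTCA, searched on both strands. Met (chr6:17463707-17463956, plus strand) and Macc1 (chr12:119443160-119443409, plus strand) read as follows.
Met: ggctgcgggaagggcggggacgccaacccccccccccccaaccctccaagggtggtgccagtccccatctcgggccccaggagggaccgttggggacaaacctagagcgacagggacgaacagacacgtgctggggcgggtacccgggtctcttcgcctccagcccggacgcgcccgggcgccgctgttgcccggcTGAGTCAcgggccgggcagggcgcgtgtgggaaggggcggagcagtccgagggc
Macc1: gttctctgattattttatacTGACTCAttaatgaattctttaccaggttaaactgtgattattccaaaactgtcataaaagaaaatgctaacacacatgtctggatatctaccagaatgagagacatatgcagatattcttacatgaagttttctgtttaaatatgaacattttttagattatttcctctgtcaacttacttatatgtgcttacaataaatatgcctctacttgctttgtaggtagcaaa
The heptamer lies 54 bases before the tabulated Met start and 230 bases before the tabulated Macc1 start. It was found in 4.46% of the 32851 upstream stretches of the same length in the table, and in none of those of Hgf, Mst1r and Mst1. The Met stretch also holds 3 matches to the GC box GGGCGG on either strand, and that of Macc1 holds 0; 32.7% of all stretches hold at least 1. The tabulated Macc1 start lies 53012 bases inside the annotated gene and that of Met 608 bases inside it, so neither need be the start used in these tumours. A match of letters is a description and says nothing of binding.

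Arrays within a group fell into pairs. The pairs were found from the median expression of each autosome, over 13386 genes, as the matching with the highest summed correlation in each group, so the correlation of 0.96 by this measure (median of 38 pairs, lowest 0.48) was set by that choice. With the autosome medians subtracted from the same genes, the median correlation was 0.77 for the 2 arrays of a pair and 0.27 for a group's arrays in different pairs. The 2 arrays of each of the 38 pairs carry different T labels; the labels do not say what a pair shares. A pair was therefore treated as a block in every fit, with a correlation of 0.58. The pair of MAP3K7 arrays T1 replicate 2 and T3 replicate 1 stood apart from the other 4 MAP3K7 arrays, so results that rest on it are given with and without it. Of the 8 probe sets, 7 passed the filter on low values, and Mst1 did not. Mst1r passed through 6 arrays alone, 3 of MAP3K11, 2 of MAP3K7 and 1 of RSK2.

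Macc1 (1457044_at, chromosome 12) was measured at log2 values of 3.15 to 4.51, with a median of 4.26, in the 6 MAP3K11 tumours. In the other 70 tumours it ran from 6.13 to 10.58. The groups did not overlap, the lowest other tumour lying 1.62 above the highest MAP3K11 tumour, and in the MAP3K11 tumours the probe set lay below the 40th percentile of its array. The fitted difference between MAP3K11 and the mean of the other 12 groups was -5.04 (SE 0.37). This is the contrast by which Macc1 was chosen, so no p is given for Macc1; 40.1% of the 25234 probe sets have an adjusted p under 0.05 in it, which is background only. These are bulk tumours, in which fewer cells of a type and less RNA per cell cannot be told apart. The 10 epithelial markers, all measured, had a mean level in the MAP3K11 tumours that was 0.37 to 0.93 above their average over all arrays, and each averaged above the level of the control probe sets over all arrays. The other genes within 1 Mb of Macc1 were Itgb8, which encodes an integrin chain, at 5.49 on average in MAP3K11, below its range of 5.93 to 9.29 over the other 70 arrays, the transcription factor gene Sp8 at 4.68 within its range of 2.59 to 6.53, and Tmem196, which did not pass the filter.

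Among the other 12 groups, Macc1 was highest where RON had been introduced. The 6 RONd160 tumours ran from 9.53 to 10.53 with a median of 9.84, and the 6 RON+MSP tumours from 9.44 to 10.58 with a median of 9.92. The group means then stepped down through PIP5K1B (9.71 ± 0.74, SD, n = 6), FGFR3 (9.44 ± 0.30), FGFR2aIIIb (9.29 ± 0.27), FGFR2aIIIc (9.05 ± 0.63), HER2 (9.03 ± 0.24), FAK1 (8.83 ± 0.34, n = 4), MAP3K7 (8.54 ± 1.51), TNK2 (8.37 ± 0.58), ErbB3 (8.31 ± 1.46) and RSK2 (8.31 ± 1.39). Neighbours in this order overlapped throughout, and only the step to MAP3K11 left a gap. The large spreads came from single pairs. In ErbB3 the pair T1 replicate 2 and T3 replicate 2 read 6.13 and 6.79, against 8.97 to 9.61 in the other 4 tumours. In RSK2 the pair T1 replicate 1 and T2 replicate 2 read 6.76 and 6.34, against 8.87 to 9.55. In MAP3K7 the pair T1 replicate 2 and T3 replicate 1 read 6.71 and 6.51, against 9.24 to 9.83. Both tumours of such a pair were low each time. Over the 35 pairs outside MAP3K11, the SD between pair means within groups was 0.94 for Macc1, at percentile 98.8 of all tested probe sets, while the SD between the 2 arrays of a pair was 0.17, at percentile 70.8. The epithelial list is given relative to its average over all arrays. In the low ErbB3 pair it lay at -1.16 and -0.21. The ErbB3 tumours T2 replicate 1 and T3 replicate 3, at 8.97 and 9.19 for Macc1, had -1.0005 and -0.31. The remaining ErbB3 pair had -0.02 and 0.19. The low RSK2 pair had -0.88 and -0.14, against -0.17 to 0.23 in the other 4 tumours. The low MAP3K7 pair had -0.48 and -0.46, against -0.27 to 0.34. Within groups, over 35 pair means, Macc1 and the epithelial list had r = 0.65 (permutation p = 0.0248, adjusted over 15 relations 0.186). Over the 12 group means they had r = 0.49 (permutation p = 0.103, adjusted 0.257). Beyond these correlations, the part of the epithelial list in the Macc1 levels was not tested.

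**Figure D1:**
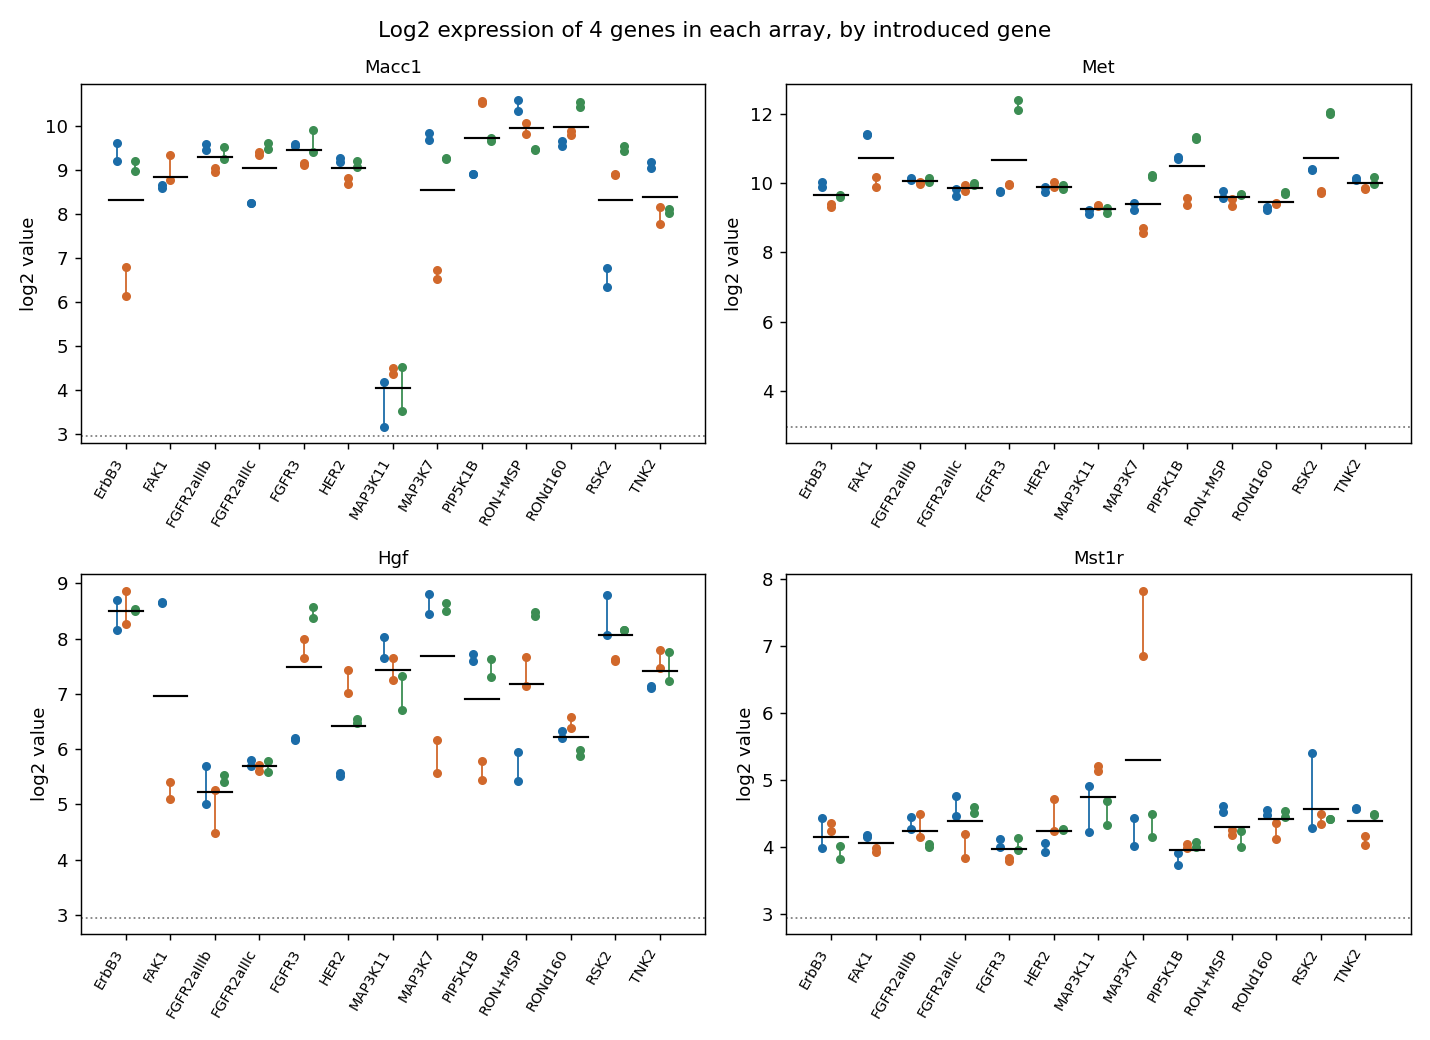
Log2 values of Macc1, Met (1434447_at), Hgf (1425379_at) and Mst1r in each array, by the introduced gene; points joined by a line are the 2 arrays of a pair, colours number the pairs within a group, black bars are group means and the dotted line is the level of control probe sets. The 6 MAP3K11 tumours sit at 3.15 to 4.51 for Macc1, and high or low tumours of the other genes mostly come as whole pairs.

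The comparison of the RON groups with the 10 other groups asks whether the MET system differs where its sister receptor drives the tumour. Macc1 rose and Met fell in the RON groups: 3 of the 7 member probe sets tested were called, 1 higher and 2 lower, while 10.4% of all probe sets were called (4.09% higher and 6.27% lower). Macc1 was higher by 1.08 (SE 0.28, limma adjusted p = 0.00718). On the means of the pairs the adjusted p was 0.0906, and without the RON+MSP pair T1 replicate 1 and T2 replicate 2 it was 0.0507. Met was at -0.61 (SE 0.19, limma adjusted p = 0.0297) by 1434447_at and at -0.76 (SE 0.26, adjusted p = 0.0486) by 1422990_at. With 1 value per pair of arrays neither Met call held (adjusted p of 0.182 and 0.181). That of 1434447_at was also lost without the first FAK1 pair (T1 replicate 1 and T2 replicate 1), which is high for Met, and without each of 4 RON pairs, with an adjusted p of up to 0.0988. That of 1422990_at was lost when any of 26 of the 38 pairs was left out, and with quantile normalization (adjusted p = 0.0623). RONd160 and RON+MSP themselves gave no member call among 7, with 0 at an unadjusted p under 0.05, where 1.57% of all probe sets were called. Their Macc1 difference was 0.04 (SE 0.50), and their Met difference was -0.12 (SE 0.35) by 1434447_at and of the opposite sign, 0.24 (SE 0.47), by 1422990_at. Relative to its average over all arrays, the macrophage list had a mean of -0.33 in RONd160 (-0.98 to 0.21) and -0.36 in RON+MSP (-1.06 to 0.23). The epithelial list stood at 0.34 in RONd160 (0.15 to 0.69) and at -0.02 in RON+MSP (-0.27 to 0.24), and the fibroblast list at -0.18 and 0.37. The part of these cell types in the Macc1 and Met differences was not tested.

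Met (1434447_at, chromosome 6) was well expressed in all 76 tumours, from 8.57 to 12.42. Its highest tumours came as pairs in 4 different groups. In FGFR3 the tumours T1 replicate 3 and T2 replicate 2 read 12.13 and 12.42, while the other 4 read 9.74 to 9.99. In RSK2 the tumours T2 replicate 1 and T3 replicate 1 read 12.06 and 12.01, above 9.71 to 10.41 in the other 4. The 4 FAK1 tumours read 11.40 and 11.43 in one pair and 10.19 and 9.90 in the other. PIP5K1B held 2 raised pairs, of 11.29 and 11.34 and of 10.71 and 10.76, beside one of 9.37 and 9.56. At the other end were the MAP3K7 pair T1 replicate 2 and T3 replicate 1, at 8.71 and 8.57. So each of these groups held both raised and ordinary tumours, and the remaining groups did not: FGFR2aIIIb lay at 10.07 ± 0.06 (SD, n = 6), TNK2 at 10.02 ± 0.14, HER2 at 9.89 ± 0.09, FGFR2aIIIc at 9.87 ± 0.14, ErbB3 at 9.65 ± 0.28, RON+MSP at 9.60 ± 0.16 and RONd160 at 9.47 ± 0.21. By group mean the order ran FAK1 (10.73 ± 0.80, n = 4), RSK2 (10.73 ± 1.05), FGFR3 (10.67 ± 1.25), PIP5K1B (10.51 ± 0.85), then the groups just named, MAP3K7 (9.39 ± 0.71) and MAP3K11 (9.25 ± 0.10), with overlap at every step. The SD between pair means within groups was 0.69 and that between arrays of a pair 0.09.

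The second Met probe set, 1422990_at, gave a similar picture at a lower level. It correlated with the first at r = 0.94 over 76 arrays, and read 9.93 and 10.10 in the high FGFR3 pair and 9.59 and 9.56 in the high RSK2 pair, where its median over 70 arrays was 7.14. In MAP3K11 the first probe set ran from 9.13 to 9.37 and the second from 5.30 to 6.48. The differences from the other 12 groups were -0.80 (SE 0.26) and -1.34 (SE 0.35), given as a description since the members were chosen on this contrast. By group mean MAP3K11 was the lowest of the 13 groups on both probe sets. Array by array, the low MAP3K7 pair lay below all 6 MAP3K11 tumours by 1434447_at, while by 1422990_at the lowest of the 76 arrays was the MAP3K11 tumour T3 replicate 2, at 5.30.

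The neighbours of Met had low correlations with it. Within 1 Mb of its start 12 genes were measured, of which 10 passed the filter, and their correlations with Met over the 70 arrays without MAP3K11 ran from -0.34 to 0.27, with a median of -0.0049. Capza2, an actin capping subunit, had r = 0.25 and stayed between 10.78 and 11.48, while Cav1, the caveolae protein gene, had r = 0.19. Tfec, a transcription factor gene, had the highest r and Cftr, the chloride channel gene, the lowest. Cftr averaged 8.16 in MAP3K11, against 2.66 over the other groups and at most 4.64 in the other 70 arrays. Wnt2 averaged 6.66 in MAP3K11, against 5.13 over the other groups and at most 6.57 in the other 70 arrays. The arrays behind these correlations resemble each other in pairs, so the values are a description.

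**Figure D2:**
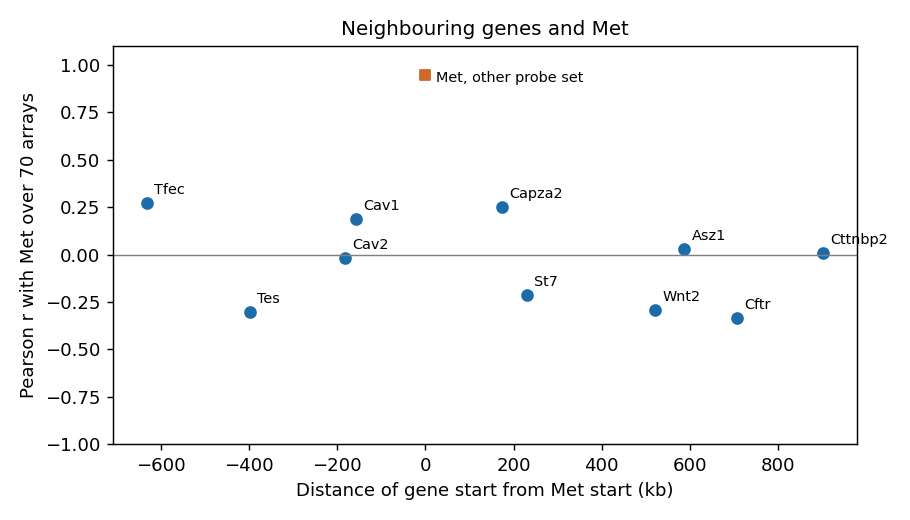
Pearson correlation with Met (1434447_at) over the 70 arrays without MAP3K11, plotted against the distance of each gene's start from that of Met in kilobases, for the 10 neighbours that passed the filter (circles) and the other Met probe set (square, r = 0.95). The neighbours lie between -0.34 and 0.27.

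The genes most like each member were named by Pearson correlation over the same 70 arrays. For Met these were Pdzd8 (0.59), Rgs12 (0.57), Map3k20 (0.56), Apcdd1 (0.56) and Gab1 (0.53). Gab1, the docking adaptor that MET recruits, lay above its median of 7.58 over the 70 arrays in each of the 4 pairs highest for Met, with pair means of 9.53 in FGFR3, 8.59 in RSK2, 10.03 in FAK1 and 9.17 in PIP5K1B. Gab1 was picked by its correlation with Met over these arrays, so high values there were largely set by that choice. The pair next highest for Met, also in PIP5K1B, had a Gab1 mean of 7.6, near the median. The 2 highest Gab1 values, 10.64 and 10.80, were however in the FGFR3 pair T1 replicate 2 and T3 replicate 1, where Met read 9.99 and 9.95. For Macc1 the most alike were Micall2 (0.74), Eloc (0.73), Pkp2 (0.71), Dazap1 (0.71) and Kcnab1 (0.70). Pkp2, the gene of the desmosome protein plakophilin, averaged 6.86 in MAP3K11, just under its lowest value of 6.91 in the other 70 arrays. Eloc and Micall2 lay within their ranges in MAP3K11, at 11.28 and 6.28.

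Hgf (chromosome 5) had the widest range of group means of the 5 genes outside MAP3K11. By 1425379_at the ErbB3 tumours ran from 8.16 to 8.87 with a median of 8.52, and the FGFR2aIIIb tumours from 4.48 to 5.69 with a median of 5.32. These 2 groups did not overlap. Between them the group means fell from RSK2 (8.07 ± 0.44, SD, n = 6) through MAP3K7 (7.69 ± 1.43), FGFR3 (7.49 ± 1.06), MAP3K11 (7.44 ± 0.45), TNK2 (7.41 ± 0.30), RON+MSP (7.18 ± 1.27), FAK1 (6.95 ± 1.97, n = 4), PIP5K1B (6.91 ± 1.03), HER2 (6.42 ± 0.77) and RONd160 (6.23 ± 0.26) to FGFR2aIIIc (5.70 ± 0.09). Neighbours overlapped except at the step from RONd160 to FGFR2aIIIc. FAK1 held both extremes: one pair read 8.64 and 8.67 and the other 5.40 and 5.10. The fibroblast list lay at 0.43 and 0.38 in the first pair and -1.52 and -1.40 in the second. The macrophage list lay at 0.68 and 0.73, and at -0.95 and -0.74. In PIP5K1B the fibroblast list ran the other way. It lay from -0.998 to -0.59 in the pairs with Hgf means of 7.66 and 7.46. In the pair with a mean of 5.61 it lay at 0.03 and -0.14. Within groups, over 35 pair means, Hgf and the fibroblast list had r = 0.37 (permutation p = 0.429, adjusted over 15 relations 0.727). Hgf and the macrophage list had r = 0.67 (permutation p = 0.0130, adjusted 0.186). Beyond these correlations nothing was computed within groups. The part of these lists in the Hgf levels was not tested. The SD between pair means within groups was 0.98 for this probe set, at percentile 99.0 of all tested, and 0.25 between arrays of a pair.

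The 3 Hgf probe sets correlated with each other at r = 0.74 to 0.92 over 76 arrays. The dimmest was 1442884_at, at a mean of 4.85 and above the 40th percentile in 29 arrays. For MAP3K11 against the other 12 groups they differed in sign, given as a description. The differences were 0.46 (SE 0.39) by 1425379_at, -0.13 (SE 0.32) by 1442884_at and -0.34 (SE 0.27) by 1451866_a_at. In ErbB3 all 3 probe sets rose, of 7 member probe sets tested, where 10.1% of all probe sets were called (4.56% higher). The differences were 1.69 (SE 0.39, limma adjusted p = 0.00275), 1.51 (SE 0.32, adjusted p = 0.000934) and 1.33 (SE 0.27, adjusted p = 0.000564) by 1425379_at, 1442884_at and 1451866_a_at. With 1 value per pair the first was lost (adjusted p = 0.0755), and all 3 were lost without the ErbB3 pair T1 replicate 2 and T3 replicate 2 (adjusted p of 0.0593, 0.108 and 0.0540). This is also the pair low for Macc1. The fibroblast list averaged 0.39 above its mean level in ErbB3 and the macrophage list 0.51, with all 10 genes of each above the control level. The epithelial list had its lowest group mean of the 13 in ErbB3, at -0.42 (-1.16 to 0.19). The part of these lists in the Hgf levels was not tested.

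Hgf fell in FGFR2aIIIb and in HER2. In FGFR2aIIIb 2 of 7 member probe sets were called lower, against 0.289% of all probe sets called lower and 1.45% called in either direction. The differences were -1.90 (SE 0.39, limma adjusted p = 0.00391) by 1425379_at and -1.15 (SE 0.27, adjusted p = 0.0131) by 1451866_a_at, while 1442884_at missed the threshold (adjusted p = 0.0958). With 1 value per pair neither call held, with adjusted p of 0.175 and 0.219. The first was also lost without the pair T1 replicate 1 and T2 replicate 1 or the pair T1 replicate 2 and T3 replicate 1, and the second without any of the 3 FGFR2aIIIb pairs, with adjusted p up to 0.101 and 0.232. In HER2 2 of 7 were lower, against 2.72% of all called lower and 7.55% in either direction. They were 1451866_a_at at -1.13 (SE 0.27, limma adjusted p = 0.00497) and 1442884_at at -1.08 (SE 0.32, adjusted p = 0.0251), and 1425379_at had -0.60 (SE 0.39, adjusted p = 0.374). These were lost too on the means of the pairs (adjusted p of 0.0768 and 0.144). That of 1442884_at was lost without any HER2 pair, or without T1 replicate 2, T2 replicate 2 or T3 replicate 1 alone. That of 1451866_a_at was lost without the pair T1 replicate 1 and T2 replicate 2 or the pair T2 replicate 1 and T3 replicate 1 (adjusted p up to 0.0904). The fibroblast list lay from -1.08 to -0.38 relative to its average in the HER2 tumours and from -0.67 to 0.18 in FGFR2aIIIb. The macrophage list lay from -0.76 to -0.29 in HER2 and from -0.67 to 0.31 in FGFR2aIIIb; the part of either list was not tested. FGFR2aIIIc, the other splice form of the same receptor, had a difference of -1.41 by 1425379_at with no member called among 7, where 0.0159% of all probe sets were called. In the other 7 single groups no member was called either. The share of all probe sets called was 0.0% for FGFR3, 0.162% for TNK2, 0.519% for FAK1, 1.28% for RON+MSP, 2.2% for PIP5K1B, 4.3% for RSK2 and 9.68% for RONd160. At an unadjusted p under 0.05, limma had 3, 1, 2, 2, 1, 5 and 4 of the 7 members in these groups.

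The receptor kinase groups (7) were set against the intracellular kinase groups (5). Hgf was lower in the receptor groups by all 3 probe sets, 3 of 7 members, against 3.16% of all probe sets called lower and 6.61% in either direction. The differences were -0.72 (SE 0.23, limma adjusted p = 0.0426), -0.56 (SE 0.18, adjusted p = 0.0490) and -0.56 (SE 0.16, adjusted p = 0.0196) by 1425379_at, 1442884_at and 1451866_a_at. The ErbB3 group, a receptor group, was nonetheless the highest of all. No call held with 1 value per pair (lowest adjusted p = 0.111), and without the first FAK1 pair, high for Hgf, the adjusted p were 0.375, 0.399 and 0.254. Leaving out a pair ended the call for 19, 29 and 2 of the 38 pairs, the other pair for 1451866_a_at being MAP3K7 T2 replicate 2 and T3 replicate 2. The single groups and this contrast share arrays and are not independent of each other.

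**Figure D3:**
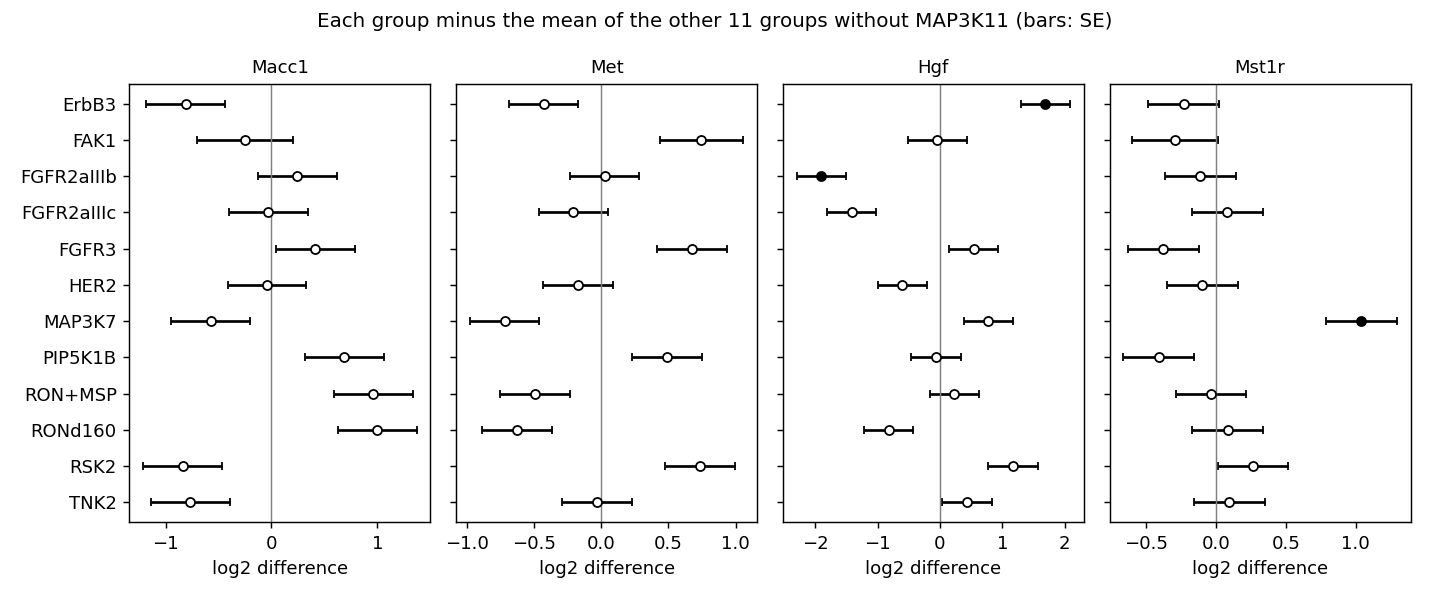
Fitted log2 difference of each group from the mean of the other 11 groups without MAP3K11 for Macc1, Met (1434447_at), Hgf (1425379_at) and Mst1r; bars are standard errors and filled points have a limma adjusted p under 0.05. Hgf is filled at 1.69 in ErbB3 and -1.90 in FGFR2aIIIb, and Mst1r at 1.04 in MAP3K7.

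Over the 70 arrays without MAP3K11 the genes most like Hgf were Sh3gl3, an endophilin gene (r = 0.87), Nr2f2, which encodes the mesenchymal nuclear receptor COUP-TFII (0.87), Phactr1 (0.85), Yif1b (0.84) and Mn1 (0.83). The 3 genes that ran most against it were named after their values were seen: Cystm1 (-0.89), Foxa1 (-0.88), a luminal epithelial transcription factor gene, and Cd24a (-0.88), which encodes an epithelial surface protein. Foxa1 ran from 5.80 to 11.21 over these arrays. The MAP3K11 tumours averaged 8.94 for Foxa1 at a mean Hgf of 7.44. In the MAP3K11 tumours Sh3gl3 averaged 6.57, below its lowest value of 7.45 in the other 70 arrays. Yif1b averaged 9.43 there, below its lowest value of 9.56. Nr2f2, Phactr1 and Mn1 averaged within their ranges.

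**Figure D4:**
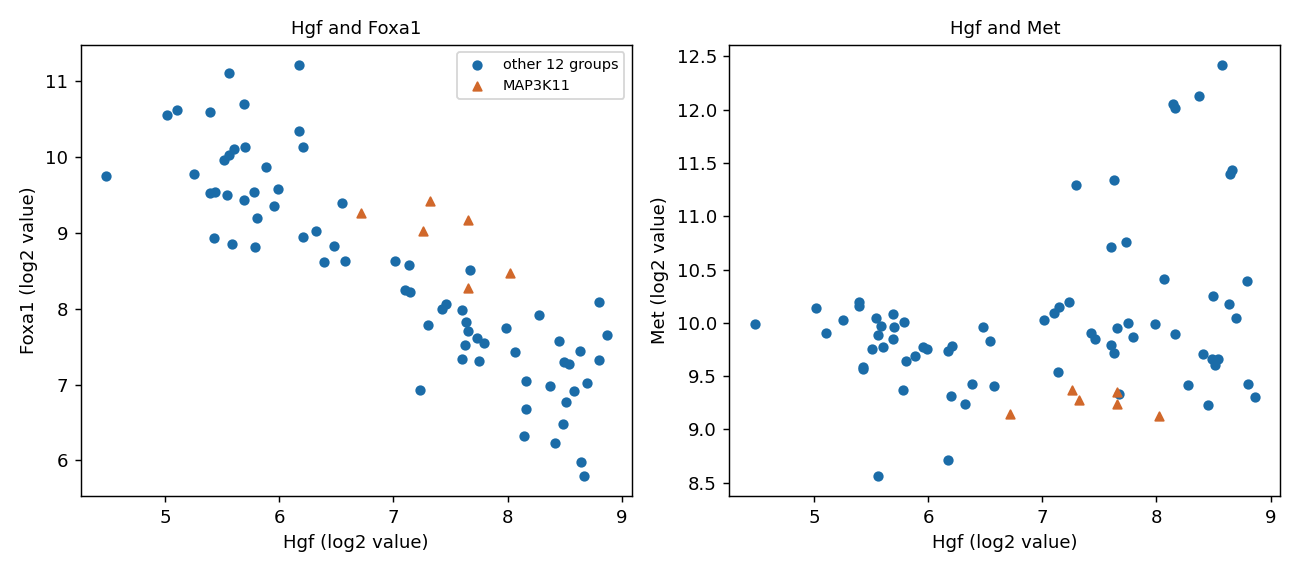
Foxa1 (left) and Met (right) against Hgf (1425379_at), each point 1 array on the log2 scale, with MAP3K11 as triangles and the other 12 groups as circles. Foxa1 runs against Hgf with r = -0.88 over the 70 arrays without MAP3K11, while Met shows tumours above 11 only where Hgf is above 7.

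The ligand and receptor levels were not clearly related over the groups. Over the 12 group means without MAP3K11, Met and Hgf had r = 0.11 (rho = 0.03, permutation p = 0.741, adjusted over 10 relations 0.741). Without FAK1 and RSK2, the groups farthest from the median of Met, r was -0.08. Macc1 and Met had r = -0.12 (rho = -0.22, permutation p = 0.708, adjusted 0.741), which turned to 0.33 without the 2 RON groups. None of the 10 relations passed: the lowest permutation p of r was 0.0637, for Met and Mst1r, with an adjusted value of 0.431. By rho the lowest permutation p was 0.0369 (adjusted 0.369), for Macc1 and Hgf, with rho = -0.62 and r = -0.51. Within groups, over 35 pair means centred on their group, Met and Hgf had r = 0.59 (rho = 0.45, permutation p = 0.0182, adjusted 0.182).

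The receptor gene Mst1r (1420461_at, chromosome 9) was near the bottom of the arrays in nearly all tumours, with a median of 4.25 over the 70 arrays without MAP3K11. The exception was 1 pair of MAP3K7 tumours, T1 replicate 2 at 6.84 and T3 replicate 1 at 7.82, against 4.02 to 4.49 in the other 4. The next highest of the 70 was an RSK2 tumour at 5.41. MAP3K7 was called higher for Mst1r, the only call among 7 members there, by 1.04 (SE 0.25, limma adjusted p = 0.00478), where 10.1% of all probe sets were called. Without that pair the difference was 0.03 (adjusted p = 0.956), so the call rests on it. In MAP3K11 the tumours ran from 4.22 to 5.21, and the difference from the other groups was 0.41 (SE 0.25). The groups given RON read 4.42 ± 0.16 for RONd160 and 4.30 ± 0.23 for RON+MSP (SD, n = 6 each), overlapping the other groups, so this mouse probe set read no rise where RON had been introduced; the labels do not give the species of the introduced receptor. The genes most like Mst1r were Oscar (0.90), Braf (0.88), Wnt4 (0.86), Dlk1 (0.86) and Id4 (0.85), and without the MAP3K7 pair these fell to 0.51, 0.25, 0.53, 0.22 and 0.61. Braf, the gene of a kinase of the ERK pathway, read 10.69 and 11.25 in that pair and at most 6.77 in the other 68 arrays outside MAP3K11. The same pair was low for Macc1 and Met. By 1425379_at it was low for Hgf too, at 6.17 and 5.56 against 8.45 to 8.80 in the other MAP3K7 tumours. The other 2 Hgf probe sets placed it between the other MAP3K7 pairs. By 1442884_at its mean was 4.83, against 4.47 and 7.22, and by 1451866_a_at it was 5.97, against 5.67 and 7.82.

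Mst1 (1418267_at, chromosome 9), the ligand of RON, was below the 40th percentile of the array in all 76 tumours, from 3.78 to 4.71, and was not tested. Its group means ran from 4.14 ± 0.18 (SD, n = 6) in FGFR2aIIIb to 4.42 ± 0.17 in RONd160, with RON+MSP at 4.38 ± 0.08 and MAP3K11 at 4.21 ± 0.14, and neighbours overlapped throughout. Hepatocyte markers, 7 of 8 measured, were also low, with means of 3.61 to 5.79 over all arrays. The probe set read no rise where MSP had been introduced with RON. The genes most like it, Eif4h (r = 0.43), Fbxo7 (0.43), Kcnj3 (0.42), Nxnl1 (0.42) and Cacng2 (0.41), had weak correlations over the 70 arrays, which at this level are no finding.

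Across all 12 groups without MAP3K11, 6 of the 7 tested member probe sets differed by limma's F test, where 36.1% of all probe sets did. The adjusted p was 0.0135 for Macc1, 0.00310 and 0.00780 for Met, and 2.7e-05, 4.5e-06 and 2.8e-05 for Hgf by 1425379_at, 1451866_a_at and 1442884_at, and 0.0755 for Mst1r. With 1 value per pair only the 3 Hgf calls held (highest adjusted p = 0.0399). The T labels gave no member call: 0 of 7 for T2 and for T3 against T1, and 0 of 7 at an unadjusted p under 0.05, with 0.0% of all probe sets called in each. Over all 25234 probe sets 1887 and 2328 had an unadjusted p under 0.05, and limma without the pair block also called 0.

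The other genes of the pathway were counted from lists of 58 genes, 53 of them tested, with 1 probe set a gene. In the RON groups 6 of 53 were called, 5 higher and 1 lower, where 11.3% of all genes were. They were Phlda1 (0.63), an ERK response gene, Sh3kbp1 (0.40) and Cblb (0.37), which act in the downregulation of receptors, Ets1 (0.35) and Hif1a (0.24), transcription factors known to act on Met, and Sos1 (-0.21), a RAS exchange factor. None of the 4 tested activating proteases and 2 protease inhibitors was called there. In the receptor against intracellular groups 3 of 53 were called, with 6.73% of all genes: Itgb4 (0.35), a membrane partner of MET, was higher, and Gab1 (-0.60) and the phosphatase gene Ptpn1 (-0.18) were lower. In both contrasts the pathway genes were called at about the share of all genes, so nothing is read from these counts.

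ErbB3 tumours had 15 of 53 pathway genes called, 4 higher and 11 lower, against 11.2% of all genes. Of the 6 membrane partners of MET, Itga6 (-0.80), Sdc1 (-0.69) and Cd44 (-0.54) fell and Nrp1 (0.96) rose. Of the 9 ERK response genes, Hbegf (-1.73), Plaur (-1.08) and Etv4 (-0.56) fell, as did Fosl1 (-0.94), an AP-1 subunit. Among the adaptors and effectors Pik3r1 (0.69) rose and Src (-0.56) fell. Among the negative regulators of receptors Lrig1 (0.81) rose, and Cblb (-0.49) and Sh3kbp1 (-0.43) fell. Spon2, reported as a target of MACC1, rose by 1.37 (SE 0.31, limma adjusted p = 0.00184), and Sh3bp4, the relative of Macc1, was at -0.64 (SE 0.12, adjusted p = 0.000181). These changes stood beside the low epithelial list of ErbB3 (-0.42) and its raised fibroblast and macrophage lists (0.39 and 0.51), whose part in them was not tested.

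In MAP3K11 the pathway genes are given as a description, as this contrast chose the members. In the fit 22 of 53 had an adjusted p under 0.05, 15 higher and 7 lower, where 41.2% of all genes did, and nothing is read from this count. Itgb4 had the largest difference, at -3.10 (SE 0.17). Dcn, the decorin gene, listed among the negative regulators, was at -1.47 (SE 0.28). It is also 1 of the 10 fibroblast markers, a list that averaged 0.54 above its mean level in MAP3K11. Itga6, the partner chain of Itgb4, was at -0.73 (SE 0.18). On the other side stood Phlda1 at 1.19 (SE 0.14), Plaur at 1.08 (SE 0.18), and Spint1, an inhibitor of the proteases that activate HGF, at 1.08 (SE 0.29). The 9 ERK response genes went both ways, 3 higher and 2 lower, with Spry2 at 1.06 (SE 0.22) and Dusp6 at -0.85 (SE 0.15). Plat, one of the listed activating proteases, was at 0.76 (SE 0.14). The membrane partner Cd44 was at 0.56 (SE 0.10) and the effector Src at 0.54 (SE 0.10). Spon2 was at -0.03 (SE 0.30) and Sh3bp4 at -0.16 (SE 0.12).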

How the data were processed

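Values were deposited as log2 expression, from 1.77 to 14.18, for 45101 probe sets on each array. Biotinylated cRNA was made by the Affymetrix procedure, per the labels' protocols; affy is named, with no version, per the submitters' processing notes. The background correction, normalization and genome build are not given in the sources used here. Array medians lay between 5.45 and 5.56, and the values were used as deposited. Genes were named by the platform annotation through the GRCm38.p6 gene table: 34958 probe sets name 1 gene, 932 several and 9211 none. Probe sets above their array's 40th percentile in at least 4 arrays were tested (25234), with limma 3.58.1 in R 4.3.3: group and T label as fixed terms, pairs of arrays as a random block (duplicateCorrelation), two-sided, Benjamini-Hochberg adjusted over all probe sets tested at 0.05. All 76 arrays were in the fit. MAP3K11 against the other groups was fitted too but is given as a description, its adjusted p-values used only to count; the other contrasts between groups leave MAP3K11 out. Permutation tests used 100000 resamples. The fitting was tested on simulated data. The number of arrays limits the precision, and p-values measure the spread between these samples, which the labels do not tie to animals.

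The members and lists were chosen with earlier results of these data known. Named were all member probe sets, for each member gene the 5 genes most correlated with it, and up to 4 neighbours within 1 Mb. For the RON, receptor and ErbB3 contrasts, up to 4 called genes of each pathway list with the largest difference were named. For MAP3K11 only some pathway genes were named, called or not, and for the other single groups none. The leave-outs of pairs and of 2 MAP3K7 arrays were chosen after seeing the data; the other alternatives (pair means, no pair block, no T term, replicate number as a block, no filter, quantile normalization, median centring, 1 probe set per gene, variance trend, a threshold of 0.01, each array left out) were planned. Some marker lists (T cell, adipocyte, neutrophil, endothelial, skeletal muscle) were measured too and are given in the closing section.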

Additional observations from a re-analysis of the deposited data

Results flagged for a closer look

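Dixon's test over the arrays of each group, 104 tests in all, marked 4 values as far from the rest of their group; chance marks about 1 in 20 groups. For Mst1 these were an FGFR2aIIIb tumour (T2 replicate 1) at 3.78, with the nearest at 4.18, and an FGFR2aIIIc tumour (T1 replicate 1) at 4.41, with the nearest at 4.26. For Mst1r it was the RSK2 tumour T2 replicate 2 at 5.41, with the nearest at 4.50. For Hgf by 1442884_at it was the FGFR2aIIIb tumour T3 replicate 1 at 3.54, with the nearest at 3.91. All 4 lie near the low end of the scale.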

How the results depend on the processing

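With 1 value per pair of arrays, 14 of 20 calls of a member were lost, member calls fell from 3 to 0 for the RON groups, from 3 to 0 for receptor against intracellular groups, from 8 to 3 for the single groups and from 6 to 3 over the 12 groups, and the calls among all probe sets from 2614 to 1642 (RON groups), from 397 to 57 (RONd160 against RON+MSP), from 11938 to 6077 (single groups, summed) and from 9106 to 4019 (12 groups). Without the pair block all probe sets gave 6602, 2950, 41353 and 19341 calls in those 4, and 5555 against 1667 for receptor against intracellular groups; member calls of the single groups were 17. With 1 probe set per gene, fewer were tested: 1372, 201, 6555, 5054 and 725 calls, T3 against T1 had 1 in place of 0, and member calls were 0 (receptor against intracellular), 3 (single groups) and 3 (12 groups). At a threshold of 0.01 there were 1052, 67, 4227, 5003 and 431 calls, and member calls of 1 (RON groups) and 0 (receptor against intracellular). Median centring left 1 member call for receptor against intracellular groups, and no filter gave 636 calls for RONd160 against RON+MSP. With the replicate number of the title as a block, T2 against T1 had 1 call in place of 0, and Met by 1422990_at in the RON groups (adjusted p = 0.0538) and Hgf by 1442884_at in receptor groups (adjusted p = 0.0526) lost their calls. Same-numbered arrays of different groups share only a number: their deviations from the group means had a median correlation of -0.003, and other arrays -0.001.

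Leaving out each array or each pair in turn, the member calls ran from 0 to 5 (RON groups), 0 to 5 (receptor against intracellular), 6 to 13 (single groups) and 6 to 7 (12 groups), and all calls from 1363 to 3227, from 859 to 2994, from 9605 to 16342 and from 8075 to 10490. For RONd160 against RON+MSP they ran from 86 to 529, and for T2 and for T3 against T1 from 0 to 1. The Macc1 difference in MAP3K11 stayed between -5.23 and -4.86. No called member difference changed direction under any alternative run. Uncalled differences did: with each pair left out in turn, the Macc1 difference in ErbB3 ranged from -1.36 to 0.12, and that of Hgf by 1425379_at from -1.73 to 1.65 in FAK1, from -0.42 to 1.00 in RON+MSP and from -0.65 to 0.06 in the RON groups, and other uncalled differences and correlations changed sign too. The 10 member correlations had 0 calls in each alternative run. The pair means have no T term, so T labels were not compared there. Mst1r and Mst1 lie near the bottom of the arrays, where changes are hard to measure.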

Other observations

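Over the 12 group means, 15 relations between the 5 genes and the epithelial, fibroblast and macrophage lists were computed, chosen after seeing the data, and none passed adjustment. Hgf had r = -0.65 with the epithelial list (rho = -0.70, permutation p = 0.0216, adjusted 0.171; r = -0.57 without FGFR2aIIIb and ErbB3), 0.59 with the fibroblast list (rho = 0.71, p = 0.0430, adjusted 0.171 by permutation; 0.61 without the same groups) and 0.59 with the macrophage list (rho = 0.61, permutation p = 0.0455, adjusted 0.171; 0.48 without them). Within groups over 35 pair means, Hgf and the macrophage list had r = 0.67 (permutation p = 0.0130, adjusted 0.186), and Macc1 and the epithelial list r = 0.65 (permutation p = 0.0248, adjusted 0.186).

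Skeletal muscle markers, 9 measured, varied most of the marker lists, from a group mean of 2.99 in RSK2 to -2.24 in MAP3K11 relative to their average over all arrays. Group means of the endothelial list ran from -0.54 in FAK1 to 0.59 in RSK2, those of the adipocyte list from -1.69 in FAK1 to 0.86 in TNK2, those of the neutrophil list from -0.50 in FGFR3 to 0.36 in RSK2, and those of the T cell list from -0.14 in FGFR3 to 0.36 in ErbB3.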
